A study of Mus musculus with 8 samples.

Results

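The genes described here are 42 components of the TGF-beta and BMP pathway, listed by name and located in the mouse genome build mm9 with the GENCODE vM1 annotation, and all 42 were found there among 22380 protein-coding genes. ATAC-seq was used, an assay that reads open chromatin from the places where the Tn5 transposase could insert adapters. The cells were stromal cells from the bone marrow of mice labelled C57BL/6J, wild type and 6 weeks old, and the question of the study was how sorted subpopulations of Sca-1+ PDGFR-α+ cells differ in open chromatin. The files are peak lists of 7 libraries, titled ATAC1 to ATAC7, each called by the authors against the same Input library. The labels give all titles the same strain, genotype, tissue and age and do not tie a title to a sorted population, so libraries are called by their titles. Each title had 1 library, so every difference below is a difference between libraries with no replicate check, and no p-value is given. A peak also cannot tell a site that is open in fewer cells from a site that is less open per cell.

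TGF-beta, activins, BMPs and GDFs are secreted dimers that bring a type II and a type I receptor kinase together. The type I receptor phosphorylates the receptor-regulated Smads, Smad2 and Smad3 on the TGF-beta and activin side and Smad1, Smad5 and Smad9 on the BMP side, which enter the nucleus with Smad4. Smad6 and Smad7 inhibit the signal, the Id genes are classical BMP targets, and Noggin, Chordin, Gremlin and Follistatin bind ligands outside the cell. In bone marrow stroma the pathway is known for its part in osteoblast, chondrocyte and adipocyte formation and in fibrosis.

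Sequences at the Id genes and at regions of the ligands and receptors away from the GENCODE starts are shown first, because the results below return to them. All are on the plus strand of mm9 and are 200 bases around the centre of the strongest peak of the region, and the Id1 start-site window was shortened to the 166 bases before the transcript. Capitals mark GGCGCC, the palindrome of the BMP Smads, or TGANTCA, the AP-1 motif. The first pair is the start-site window of Id1, at chr2:152561821-152561986, and a region 1061 bases upstream of the Id1 start, at chr2:152560826-152561025, which was called in all 7 libraries and was picked after its values were seen. Its GGCGCC begins 1099 bases before the Id1 start, and the distal Id1 promoter is known to hold a BMP-responsive element.
Id1 start site: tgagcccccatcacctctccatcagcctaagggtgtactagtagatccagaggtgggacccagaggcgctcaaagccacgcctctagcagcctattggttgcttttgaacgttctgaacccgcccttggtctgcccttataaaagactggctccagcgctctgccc
Id1 upstream: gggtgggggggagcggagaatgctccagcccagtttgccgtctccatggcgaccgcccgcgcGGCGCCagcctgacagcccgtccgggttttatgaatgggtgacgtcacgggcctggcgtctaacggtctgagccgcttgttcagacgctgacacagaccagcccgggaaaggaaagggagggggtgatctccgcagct

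The next 3 sequences are regions away from the GENCODE starts that were called in all 7 libraries with a high mean fold. They lie downstream of Tgfb1 (chr7:26492600-26492799), upstream of Id2 (chr12:25783681-25783880) and upstream of Bmpr2 (chr1:59820145-59820344).
Tgfb1 downstream: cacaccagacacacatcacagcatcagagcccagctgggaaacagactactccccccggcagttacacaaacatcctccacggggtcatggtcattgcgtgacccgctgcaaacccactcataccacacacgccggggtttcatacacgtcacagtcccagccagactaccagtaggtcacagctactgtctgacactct
Id2 upstream: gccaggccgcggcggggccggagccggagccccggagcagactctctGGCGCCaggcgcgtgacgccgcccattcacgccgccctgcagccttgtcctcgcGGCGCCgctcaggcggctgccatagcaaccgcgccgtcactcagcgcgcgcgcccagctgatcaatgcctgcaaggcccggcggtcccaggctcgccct
Bmpr2 upstream: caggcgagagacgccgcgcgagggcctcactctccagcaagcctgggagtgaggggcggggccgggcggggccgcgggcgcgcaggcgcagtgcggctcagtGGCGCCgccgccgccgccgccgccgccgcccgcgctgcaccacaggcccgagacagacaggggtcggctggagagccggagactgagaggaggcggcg

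The last 3 are the strongest of the regions called in ATAC2, ATAC5 and ATAC6 and in no further library. All lie in introns, of Bmp7 (chr2:172731853-172732052), Bmp5 (chr9:75629357-75629556) and Acvr1 (chr2:58358312-58358511).
Bmp7 intron: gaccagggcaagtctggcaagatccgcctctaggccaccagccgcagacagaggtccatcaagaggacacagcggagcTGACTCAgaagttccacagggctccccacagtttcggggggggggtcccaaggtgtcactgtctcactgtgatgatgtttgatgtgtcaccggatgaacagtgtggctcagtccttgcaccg
Bmp5 intron: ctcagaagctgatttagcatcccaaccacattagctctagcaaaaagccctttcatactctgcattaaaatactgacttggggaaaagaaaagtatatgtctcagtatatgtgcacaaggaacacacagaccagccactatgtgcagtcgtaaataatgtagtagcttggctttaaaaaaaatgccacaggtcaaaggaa
Acvr1 intron: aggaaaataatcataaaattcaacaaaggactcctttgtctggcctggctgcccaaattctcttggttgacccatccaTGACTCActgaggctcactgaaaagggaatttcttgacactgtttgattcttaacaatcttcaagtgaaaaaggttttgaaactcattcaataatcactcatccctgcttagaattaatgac

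The lists held 15188 (ATAC7) to 32280 (ATAC2) peaks, and ATAC2, ATAC5 and ATAC6 were the 3 longest. The labelled cell type was checked on the start sites of 14 stromal marker genes, of which 2 (ATAC4) to 8 (ATAC2 and ATAC5) had a peak. Pdgfra, which marks the sorted cells, had none in ATAC1 and ATAC3, and Prrx1, Vcam1, Lepr, Thy1 and Dcn had none in any library. Of 14 haematopoietic markers 6, 4, 7, 5, 10, 5 and 4 had a peak in ATAC1 to ATAC7. The stromal counts there were 4, 8, 3, 2, 8, 6 and 6. Of 13 endothelial markers 5 had a peak in ATAC5, 2 in ATAC6, 1 in ATAC2 and 0 in the others. No endothelial peak was at Cdh5, Tek or Emcn. Summed over the listed genes, reads at marker start sites were 181 (ATAC4) to 1755 (ATAC5) for the stromal list. For the endothelial list they were up to 483 (ATAC5). The haematopoietic sum was above the stromal sum in ATAC1 (1297 against 563), ATAC3 (792 against 423) and ATAC4 (646 against 181). It was below it in ATAC2 (231 against 1484), ATAC5 (1000 against 1755), ATAC6 (694 against 1117) and ATAC7 (302 against 605). The sort took cells without CD31, CD45 and Ter119, a gate that removes endothelial and blood cells, and the part of any left in the results below was not tested.

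A start-site peak is a peak whose centre lies within 1000 bases of the start of any annotated transcript of the gene. Such peaks were common at the pathway genes in every library. Of 42 genes, 35 had one in ATAC2 and 35 in ATAC5 (83.3% each, against 50.2% and 52.7% of all protein-coding genes). ATAC6 followed with 31 genes (73.8% against 51.5%) and ATAC1 with 28 (66.7% against 49%). The 3 shortest lists had fewest, with 27 genes in ATAC7 (64.3% against 42%), 25 in ATAC4 (59.5% against 43.6%) and 24 in ATAC3 (57.1% against 43.5%). List length moves with these counts. With each list cut to its best 15188 peaks they were 25, 27, 24, 24, 31, 27 and 27 in ATAC1 to ATAC7. Shares of all genes were not computed for the cut lists, so the excess over all genes is not known there.

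**Figure D1:**
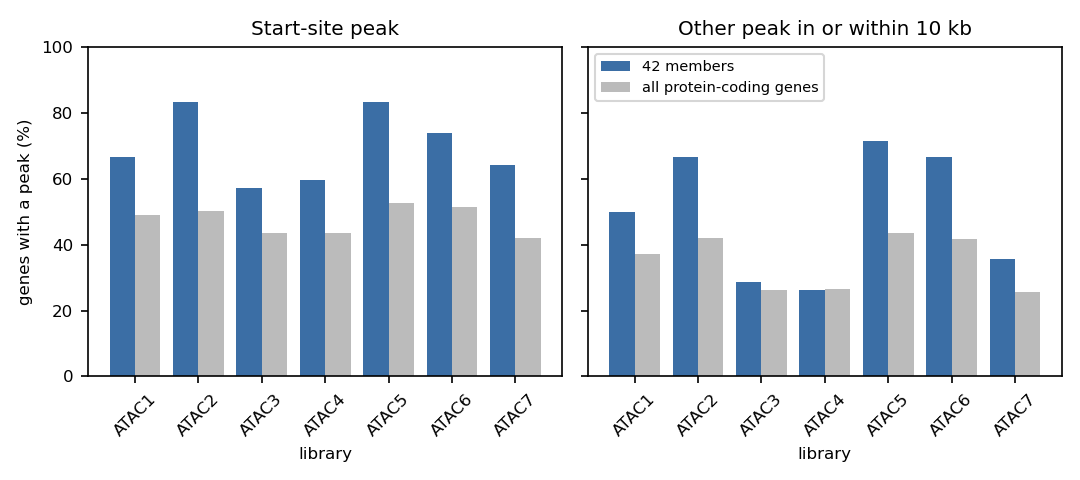
Share of genes (%) with a start-site peak (left) and with another peak in the gene or within 10 kb (right) in each library, for the 42 pathway genes (blue) and all protein-coding genes (grey). The blue bar is the higher one in every library for start sites, while for other peaks ATAC4 stands at 26.2% against 26.7%.

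A start-site peak in all 7 libraries was present at 22 of the 42 genes (52.4%, against 36.8% of all genes), and 5 had none in any library (11.9%, against 43.4%). The remaining 15 genes (35.7%, against 19.8% of all genes) had one in some libraries. The division differed between the roles of the genes. All 4 Id genes, both inhibitory Smads, Smad4, the co-receptor Tgfbr3, 3 of 4 type II receptors, 4 of 6 type I receptors and 3 of 5 receptor-regulated Smads had a peak in all libraries. By contrast, this held for 2 of 9 BMP and GDF ligands and for none of the 4 secreted antagonists. These are counts over small groups and were not tested. With peaks limited to a fold over Input of at least 5, fewer of the 42 genes were called in all libraries and more in none. Shares of all genes were not computed at that limit. A library without a peak is a library in which no peak passed the authors' limits. The tables hold no reads for such a site, so its level is not known.

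**Figure D2:**
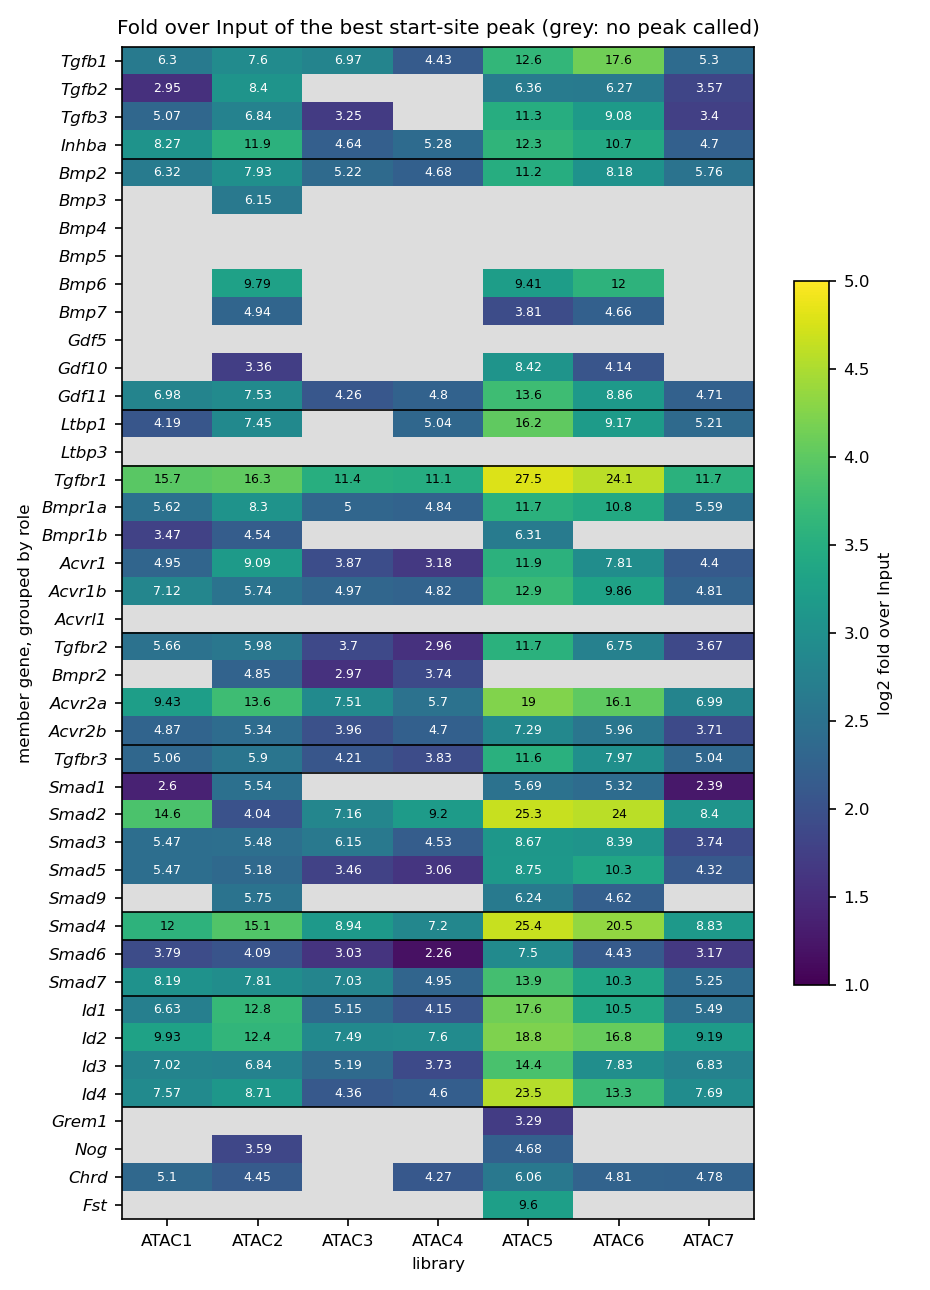
Fold over Input of the best-ranked start-site peak of each of the 42 genes (rows, grouped by role) in each library (columns), with colour on a log2 scale and the fold printed in the cell, and grey where no peak was called. The rows of Tgfbr1, Smad4 and Id2 are filled and bright throughout, while those of Bmp6, Bmp7, Gdf10 and Smad9 are filled in ATAC2, ATAC5 and ATAC6 and in no further library.

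Among the TGF-beta and activin ligands, Tgfb1 (chr7:26472021-26490096, plus strand) was called in all libraries. Its fold over Input, the authors' ratio of scaled library reads to Input reads, was 6.3, 7.6, 6.97, 4.43, 12.6, 17.6 and 5.3 in ATAC1 to ATAC7. Folds were higher in ATAC5 and ATAC6 over all genes too, and relative to the median start site of the library Tgfb1 was 1.25 in ATAC6, 1.13 in ATAC3 and 0.857 in ATAC5. The best-ranked peak was not at the same place throughout: its centre lay 12 to 35 bases from a start in 5 libraries and 438 and 421 bases from one in ATAC3 and ATAC6. Inhba, which encodes an activin subunit, had folds of 4.64 (ATAC3) to 12.3 (ATAC5). Tgfb2 was called in 5 libraries, with 84, 117, 182, 207 and 84 library reads in ATAC1, ATAC2, ATAC5, ATAC6 and ATAC7, at folds of 2.95, 8.4, 6.36, 6.27 and 3.57. Tgfb3 was called in all but ATAC4, with 95, 143, 161, 338, 127 and 154 reads in ATAC1, ATAC2, ATAC3, ATAC5, ATAC6 and ATAC7, at folds of 5.07, 6.84, 3.25, 11.3, 9.08 and 3.4. Relative to the median start site, Tgfb2 was 0.305 (ATAC1) to 0.88 (ATAC2) and Tgfb3 0.525 (ATAC1) to 0.774 (ATAC5), but the Tgfb2 peak of ATAC2 lay at another place than those of the other libraries. Of the latent TGF-beta binding proteins, which hold the ligand in the matrix, Ltbp3 had no start-site peak. Ltbp1 was called in all but ATAC3, with 75, 151, 49, 302, 169 and 118 reads in ATAC1, ATAC2, ATAC4, ATAC5, ATAC6 and ATAC7 and folds of 4.19, 7.45, 5.04, 16.2, 9.17 and 5.21. The peaks of ATAC1 and ATAC2 lay at the most upstream Ltbp1 start and those of the other 4 at a start inside the gene, so the series joins different sites.

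Of the 9 BMP and GDF ligands, 2 to 6 had a start-site peak in a given library. Bmp2 (chr2:133377895-133388621, plus strand), an inducer of bone formation, was called in all, with folds of 6.32, 7.93, 5.22, 4.68, 11.2, 8.18 and 5.76 in ATAC1 to ATAC7. Gdf11 was the other, at folds of 4.26 (ATAC3) to 13.6 (ATAC5). Bmp6, Bmp7 and Gdf10 were called in ATAC2, ATAC5 and ATAC6 and in no further library. Bmp6 had 93, 66 and 99 reads in these 3 libraries, at folds of 9.79, 9.41 and 12. Bmp7 had 169, 109 and 157 reads, at folds of 4.94, 3.81 and 4.66. Gdf10 had 115, 182 and 150 reads, at folds of 3.36, 8.42 and 4.14. In lists of 15188 peaks each, Bmp7 kept all 3 calls, while Bmp6 kept that of ATAC6 and Gdf10 that of ATAC5. Bmp3, an inhibitor of osteogenic BMPs, had a peak in ATAC2 alone, with 74 reads against 19 of Input (fold 6.15, exact 95% interval 3.68 to 10.8), and it stood at 97.6% of the way down that list, so the call was absent from the list of 15188. Bmp4, Bmp5 and Gdf5 had no start-site peak. Intervals here and below cover counting error only.

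Among the type I receptors, Tgfbr1 (chr4:47366094-47427803, plus strand), the TGF-beta type I receptor, had the strongest start site of the 42 genes by mean log2 fold. Its folds in ATAC1 to ATAC7 were 15.7, 16.3, 11.4, 11.1, 27.5, 24.1 and 11.7, on 967 (ATAC7) to 2231 (ATAC5) reads. It was within the first 0.187% (ATAC3) to 1.04% (ATAC2) of each list. Acvr1 (chr2:58241055-58419568, minus strand), a BMP type I receptor also called ALK2, had folds of 4.95, 9.09, 3.87, 3.18, 11.9, 7.81 and 4.4, so ATAC2 and ATAC5 were high and ATAC4 low. A start of Upp2 shares this window, as starts of Gm17110, RP24-263P17.1 and Gm2018 do at Bmpr1a, Smad7 and Nog, and the peaks there cannot be assigned to 1 gene. Bmpr1a and Acvr1b were called in all libraries at folds of 4.84 to 11.7 and 4.81 to 12.9. Bmpr1b, the other BMP type I receptor, was called in ATAC1, ATAC2 and ATAC5 with 48, 69 and 151 reads and folds of 3.47, 4.54 and 6.31, and in 1 library in lists of equal length. Acvrl1, a receptor known mainly from endothelium, had no start-site peak at any of its 10 annotated starts.

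Of the type II receptors, Acvr2a (chr2:48669629-48758789, plus strand), which binds activins and BMPs, had the highest mean fold, with 9.43, 13.6, 7.51, 5.7, 19, 16.1 and 6.99 in ATAC1 to ATAC7. Tgfbr2 (chr9:115993415-116084383, minus strand), the TGF-beta type II receptor, had 5.66, 5.98, 3.7, 2.96, 11.7, 6.75 and 3.67. ATAC4 was lowest at both genes, also relative to the median start site, where the highest was ATAC2 for Acvr2a (1.43) and ATAC5 for Tgfbr2 (0.799). Acvr2b lay between 3.71 (ATAC7) and 7.29 (ATAC5). The co-receptor Tgfbr3 (chr5:107535589-107718648, minus strand), also called betaglycan, had 5.06, 5.9, 4.21, 3.83, 11.6, 7.97 and 5.04.

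Bmpr2 (chr1:59821481-59927703, plus strand), the BMP type II receptor, is a case in which the call depended on the annotated start. Its start-site peaks were weak, with 43 reads in ATAC2, 56 in ATAC3 and 109 in ATAC4, at folds of 4.85, 2.97 and 3.74, and these 3 did not all lie at one place. However, a peak 1236 bases upstream, the region printed above, was called in all 7 libraries with 568, 442, 249, 302, 954, 786 and 310 reads at folds of 6.91, 5.72, 4.19, 4.88, 11.2, 9.74 and 4.33. The RefSeq start of Bmpr2, placed by exact match of its promoter sequence, lay 358 bases upstream of the GENCODE start. When RefSeq starts were added, Bmpr2 counted as called in all 7 libraries. None of the other genes with a matched RefSeq start changed by this step, which could be run for 29 of the 42.

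The receptor-regulated Smads had peaks in most libraries. Smad2 (chr18:76401234-76465385, plus strand) had the highest mean fold of them. Its folds were 14.6, 4.04, 7.16, 9.2, 25.3, 24 and 8.4 in ATAC1 to ATAC7, on 1537, 133, 532, 1081, 2309, 2465 and 936 reads. The ATAC2 value is from another place, as its 133 reads belong to a peak further downstream. Its list holds no peak upstream of the Smad2 start, where the other 6 libraries have theirs, so its level there is not known. Smad3 (chr9:63494574-63605801, minus strand) had folds of 5.47, 5.48, 6.15, 4.53, 8.67, 8.39 and 3.74, and Smad5 lay between 3.06 (ATAC4) and 10.3 (ATAC6). Smad1 was called in 5 libraries, with 127, 228, 309, 233 and 117 reads in ATAC1, ATAC2, ATAC5, ATAC6 and ATAC7 and folds of 2.6, 5.54, 5.69, 5.32 and 2.39. Smad9 was called in ATAC2, ATAC5 and ATAC6, with 91, 204 and 141 reads and folds of 5.75, 6.24 and 4.62, and in ATAC5 alone in lists of equal length. Its ATAC2 peak, 533 bases from the start, lay at another place than those of ATAC5 and ATAC6. Of the BMP-side Smads, Smad5 was therefore the only one with a peak in every library, while Smad2 and Smad3 both had one.

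Smad4 (chr18:73798663-73863434, minus strand), the common partner, had folds of 12, 15.1, 8.94, 7.2, 25.4, 20.5 and 8.83, above the median start site in every library. Smad7 (chr18:75527183-75555589, plus strand), the inhibitor of both branches, had 8.19, 7.81, 7.03, 4.95, 13.9, 10.3 and 5.25. Smad6 (chr9:63800953-63869866, minus strand), which acts mainly on BMP signals, was much weaker, with 3.79, 4.09, 3.03, 2.26, 7.5, 4.43 and 3.17. It had the lowest mean log2 fold of the 22 genes called in all libraries, at 1.92.

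The Id genes, which encode inhibitors of bHLH transcription factors, were called at their start sites in every library. Id2 (chr12:25778666-25780957, minus strand) was the strongest, with folds of 9.93, 12.4, 7.49, 7.6, 18.8, 16.8 and 9.19 in ATAC1 to ATAC7. Id4 (chr13:48356796-48359405, plus strand) had 7.57, 8.71, 4.36, 4.6, 23.5, 13.3 and 7.69. ATAC5 was highest, but relative to the median start site of each library the intervals of ATAC5 and ATAC4 overlapped. A start of A330033J07Rik shares the window. Id1 lay between 4.15 (ATAC4) and 17.6 (ATAC5) and Id3 between 3.73 (ATAC4) and 14.4 (ATAC5).

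None of the secreted antagonists was called in all libraries. Chrd was called in all but ATAC3, with 108, 107, 49, 368, 113 and 78 reads in ATAC1, ATAC2, ATAC4, ATAC5, ATAC6 and ATAC7 and folds of 5.1, 4.45, 4.27, 6.06, 4.81 and 4.78. Nog was called in ATAC2 and ATAC5, with 75 and 145 reads and folds of 3.59 and 4.68. Grem1 (50 reads, fold 3.29, interval 2.01 to 5.51) and Fst (129 reads, fold 9.6, interval 6.13 to 15.7) were called in ATAC5 alone. All 4 antagonists thus had a start-site peak in ATAC5, against 0 in ATAC3, where the shares of all genes were 52.7% and 43.5%. In lists of 15188 peaks each, the calls of Nog, Grem1 and Fst were absent, and Chrd was called in ATAC1, ATAC5 and ATAC7.

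Folds differ between libraries over all genes, so they were also divided by the library's median fold at the start sites of the 8238 genes called in all libraries, which lay between 6.03 (ATAC7) and 14.7 (ATAC5). On this relative scale 1 is the median start site of the library. Tgfbr1 was between 1.63 (ATAC1) and 1.95 (ATAC7), the narrowest range of the 22 genes at a ratio of 1.19. Smad2 was between 0.424 (ATAC2) and 1.73 (ATAC5), a ratio of 4.08. The median ratio of highest to lowest was 1.65 over the 22 genes and 1.54 over all 8238. For 8 of the 22 genes (36.4%, against 21.5% of the 8238) the exact 95% intervals of the highest and the lowest library did not overlap: Acvr1, Id1, Id3, Smad2, Smad3, Smad7, Tgfb1 and Tgfbr2. At Smad2 and Tgfb1 the peaks of the libraries lie at different places, so there the intervals compare different sites. At Id1 the best-ranked ATAC4 peak is also shifted from that of ATAC2, and ATAC4 has a further peak at the ATAC2 place with 115 reads against 24 of Input, which the Id1 interval does not use. The best-ranked Smad7 peaks of ATAC3 and ATAC6 do not share a base either. At Id1 the high library was ATAC2 (relative fold 1.34) and the low one ATAC4 (0.628), and at Id3 these were ATAC7 (1.13) and ATAC6 (0.555). At Smad3 they were ATAC3 (1) and ATAC1 (0.566), and at Smad7 ATAC3 (1.14) and ATAC6 (0.727). The highest relative fold fell in ATAC7 for 7 genes, in ATAC5 for 6, in ATAC2 for 4, in ATAC3 and ATAC6 for 2 each, in ATAC4 for 1 and in ATAC1 for 0. Over all 8238 genes the shares were 13.8% in ATAC7, 11.5% in ATAC5, 20.7% in ATAC2, 11.7% in ATAC3, 16.3% in ATAC6, 13.3% in ATAC4 and 12.6% in ATAC1. The median fold at the pathway genes' start sites was below that of all genes in every library, for example 5.98 against 8.63 in ATAC1 and 11.6 against 12.4 in ATAC5.

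Other peaks, those in the gene or within 10 kb of it that are no start-site peak of it, differed more between libraries. ATAC5 had 93 at the pathway genes, ATAC2 had 90 and ATAC6 had 70. ATAC1 had 41, ATAC7 had 28, ATAC3 had 22 and ATAC4 had 21. Per gene this was 2.21, 2.14 and 1.67 in ATAC5, ATAC2 and ATAC6, against 0.96, 0.947 and 0.887 over all protein-coding genes, and 0.5 against 0.442 in ATAC4. At least 1 such peak was present at 30 pathway genes in ATAC5 (71.4%, against 43.4% of all genes), at 28 in ATAC2 (66.7% against 41.9%) and at 28 in ATAC6 (66.7% against 41.8%). The same held for 21 in ATAC1 (50% against 37.1%), 15 in ATAC7 (35.7% against 25.6%), 12 in ATAC3 (28.6% against 26.3%) and 11 in ATAC4 (26.2% against 26.7%). The shares in ATAC3 and ATAC4 were thus near those of all genes. In lists of 15188 peaks each, the counts were 36 in ATAC2, 27 in ATAC5, 24 in ATAC6 and 13 in ATAC1. ATAC7, the shortest list, had 28. Counts over all genes were not computed for lists of this length. The pathway genes are also longer, with a median of 34767 bases against 15420. Over the genes with their flanks, there were 4.11 regions per 100 kb at the pathway genes and 2.43 over all genes.

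**Figure D3:**
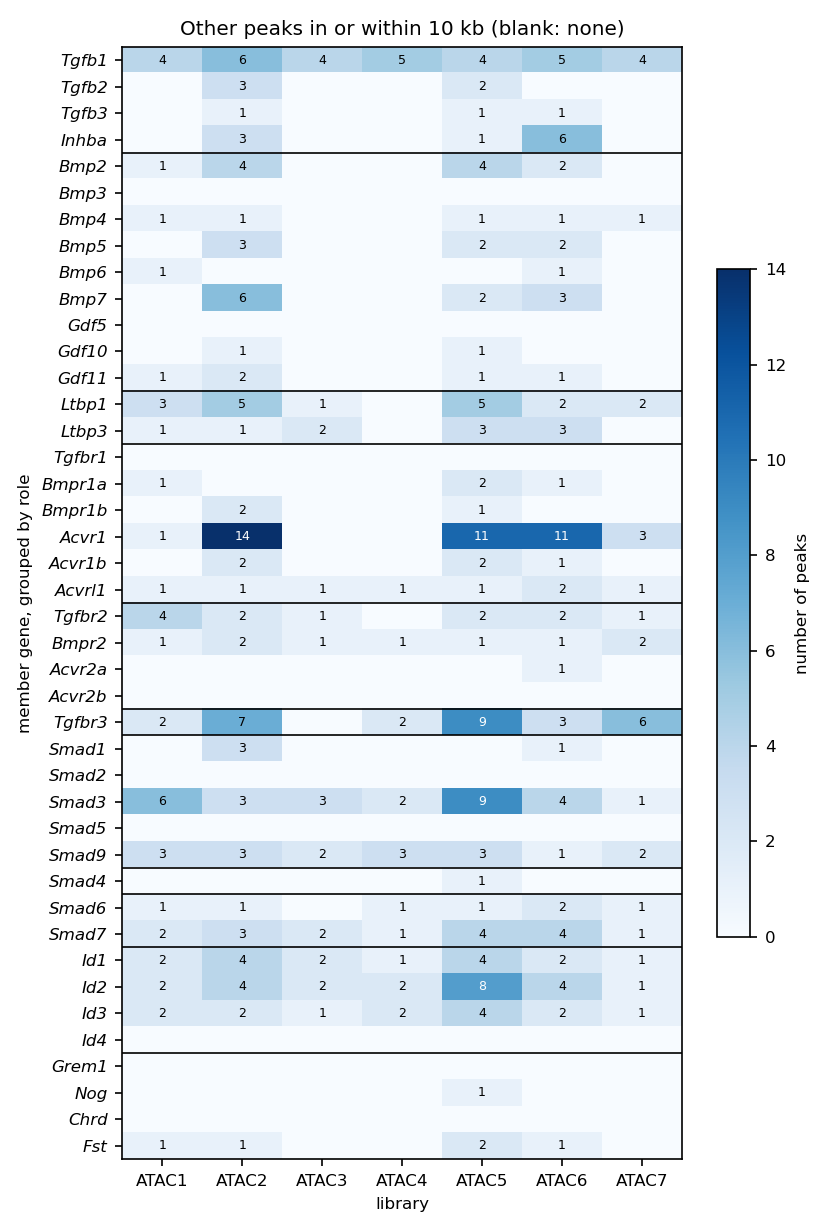
Number of peaks in the gene or within 10 kb that are no start-site peak of it, for each of the 42 genes (rows, grouped by role) in each library (columns), blank where there was none. Acvr1 reaches 14 in ATAC2 and 11 in ATAC5 and ATAC6, and Tgfb1 has 4 to 6 in every library.

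Overlapping other peaks of the libraries formed 146 regions at 33 of the 42 genes. Peaks were joined in chains, so not all peaks of a region overlap each other. Of the regions, 86 lay in introns, 27 upstream and 27 downstream of the gene, 5 in a UTR and 1 in a coding exon. A start of another gene lay within 1000 bases of 9 of the regions. As many as 71 regions (48.6%, against 42.7% over all genes) were called in 1 library and 9 (6.16%, against 13.6%) in all 7. For 95 regions (65.1%, against 48.4% over all genes) the calls came from ATAC2, ATAC5 or ATAC6 and no further library, and 12 of these were called in all 3. Bmp3, Gdf5, Tgfbr1, Acvr2b, Smad2, Smad5, Id4, Grem1 and Chrd had no other region.

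The most other regions lay at Acvr1, with 16. Peaks of these regions numbered 1, 14, 0, 0, 11, 11 and 3 in ATAC1 to ATAC7, although the start site was called in every library. The start-site reads were 303 in ATAC4, which had no other peak, and 875 in ATAC2, which had the most. The intron region printed above had 114, 106 and 110 reads in ATAC2, ATAC5 and ATAC6, at folds of 25.7, 25.9 and 19.2 on 7 to 9 Input reads. At Tgfbr3, with 11 regions, the peaks numbered 2, 7, 0, 2, 9, 3 and 6. Its most shared region, in an intron (chr5:107596259-107597241), was called in all but ATAC3, with 110, 296, 49, 349, 282 and 162 reads. Smad3 also had 11 regions, all in introns, and here the pattern was different, with 6, 3, 3, 2, 9, 4 and 1 peaks. A region of its introns (chr9:63585316-63586029) was called in all but ATAC2, with 72, 144, 84, 103, 48 and 98 reads. Its folds were 4.92 (ATAC7) to 7.67 (ATAC5). The ATAC6 and ATAC7 peaks of this region do not overlap that of ATAC1, so the values join different places.

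Ltbp1 (chr17:75404908-75791852, plus strand) had 10 regions, with 3, 5, 1, 0, 5, 2 and 2 peaks in ATAC1 to ATAC7. Its intron region at chr17:75509986-75510765 had 90, 737, 85, 555 and 254 reads in ATAC1, ATAC2, ATAC3, ATAC5 and ATAC7, at folds of 7.37, 36.4, 5.36, 31.7 and 11.7. ATAC6, a library with a long list, was not among them. Id2 also had 10 regions, with 2, 4, 2, 2, 8, 4 and 1 peaks. Its upstream region printed above, 2824 bases before the start, was called in all libraries with 286, 311, 127, 164, 474, 262 and 165 reads, at folds of 9.24, 11.7, 8.54, 6.63, 16.9, 13.7 and 6.5. These folds were below those at the Id2 start site in every library except ATAC3.

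Some of the regions near Id1 and Id3 were likewise widely called, while Id4 had no other region. The upstream region of Id1 had 118, 195, 111, 74, 297, 208 and 113 reads in ATAC1 to ATAC7, at folds of 4.14, 6.29, 3.5, 2.33, 11.8, 7.61 and 3.56. ATAC5 had the highest fold there and ATAC4 the lowest. A region 2945 bases downstream of the nearest Id3 start had 122 (ATAC3 and ATAC4) to 264 (ATAC5) reads, also in all libraries. At the inhibitor Smad6 a region 1061 bases upstream was called in all but ATAC3, with 235, 139, 186, 401, 448 and 189 reads. An ATAC3 peak overlaps it but counts as a start-site peak by its centre. Its folds of 5.63 (ATAC2) to 17.2 (ATAC6) were above those of the Smad6 start site. The regions 1061 bases from Id1 and Smad6 and 1063 bases from Nog, the last in ATAC5 with 65 reads, lie just outside the 1000-base window, while the ATAC3 peak 942 bases from Bmpr2 lies just inside.

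**Figure D4:**
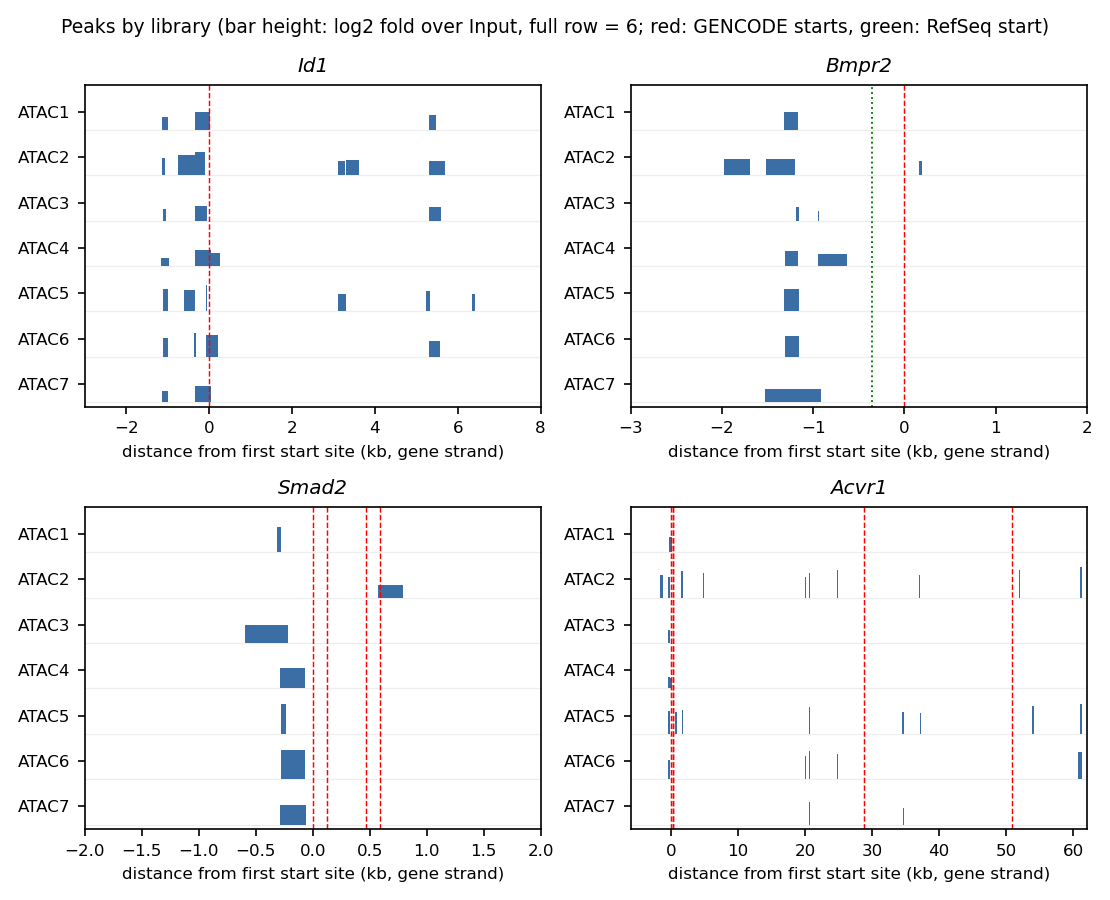
Peaks of the 7 libraries (rows) at Id1, Bmpr2, Smad2 and Acvr1, by distance from the most upstream GENCODE start in kb on the gene's strand, with bar height as log2 fold over Input and dashed red lines at GENCODE starts (dotted green, the RefSeq start of Bmpr2). The regions 1061 bases upstream of Id1 and 1236 bases upstream of Bmpr2 are present in all rows, the ATAC2 row of Smad2 has its peak downstream of the start, and ATAC1, ATAC3 and ATAC4 have none away from the start in the stretch of Acvr1 that is drawn.

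Among the ligands, Tgfb1 had 32 other peaks in 8 regions, with 4 to 6 in each library. Its downstream region printed above had 378, 646, 444, 264, 756, 795 and 295 reads in ATAC1 to ATAC7, at folds of 6.73, 14.6, 7.34, 7.66, 16.6, 13.6 and 9.04. A further downstream region at chr7:26496548-26497183 was also called in all, with 118 (ATAC4) to 1131 (ATAC5) reads, and a region 6095 bases upstream, with 473 to 1050 reads, lay 251 bases from the start of B9d2. Bmp7 had 6, 2 and 3 in ATAC2, ATAC5 and ATAC6, and its printed intron region had 341, 112 and 205 reads there at folds of 35.9, 27.4 and 32.2. Bmp5, with no start-site peak, had 3, 2 and 2 in the same 3 libraries, and its printed region had 190, 67 and 92 reads at folds of 37.5, 19.1 and 24.1. Input reads at these regions were 6 to 15, so the folds are wide: the interval of Bmp7 in ATAC2 was 21.5 to 64.9 and that of Bmp5 in ATAC2 18.7 to 88.2. Bmp4 had a peak near a start of Gm15222 inside the gene, in ATAC1, ATAC2, ATAC5, ATAC6 and ATAC7, with 54 to 179 reads. Bmp2 had 1, 4, 4 and 2 other peaks in ATAC1, ATAC2, ATAC5 and ATAC6 and none in the other libraries.

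The other genes had from 1 to 8 regions. Smad7 had 8, and a region in its intron (chr18:75546753-75547538) was called in all but ATAC4, with 114, 245, 110, 187, 264 and 75 reads. Inhba and Tgfbr2 had 5 each, and the Tgfbr2 regions included 1 in an intron with 123 reads in ATAC1 and 82 in ATAC5 and another with 196, 181, 121 and 106 reads in ATAC2, ATAC5, ATAC6 and ATAC7. Acvrl1, with no start-site peak, had a region just downstream of the gene (chr15:100975981-100976209) that was called in all libraries, with 155, 95, 64, 55, 166, 100 and 81 reads. Ltbp3, also with no start-site peak, had an intron region in ATAC2, ATAC3, ATAC5 and ATAC6 with 162, 43, 212 and 200 reads. Fst had an intron region in ATAC1, ATAC2, ATAC5 and ATAC6, with 90, 92, 246 and 104 reads, although its start site was called in ATAC5 alone. At Gdf11 a region 3926 bases upstream was called in the same 4 libraries, with 45, 75, 96 and 53 reads. Smad9 had 3 regions, of which 1 was called in all libraries and lay 106 bases from a start of Rfxap. Tgfb2 had 4 regions, Bmpr1a, Acvr1b and Smad1 had 3 each, Bmp6, Gdf10 and Bmpr1b had 2 each, and Tgfb3, Acvr2a, Smad4 and Nog had 1 each, none of them in more than 3 libraries.

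Motifs were searched on both strands in 200 bases around the strongest peak of each region. GGCGCC was present at 9 of 37 start-site regions of the pathway genes (24.3%, against 16.2% of all start-site regions). It was also at 14 of 137 other regions with no start of another gene nearby (10.2%, against 3.34% of other regions over the genome). The sets of other regions are not built alike. Those over the genome hold no start-site peak of any library, while 3 regions of the pathway genes overlap such a peak. The regions upstream of Bmpr2 and Smad6 are among these 3, and both hold GGCGCC. The start sites with GGCGCC were Acvr1, Bmp2, Bmpr1a, Grem1, Id4, Smad1, Smad2, Tgfbr2 and Tgfbr3. Among the other regions, those of the Id genes held 7 of the 14, including the Id1 and Id2 regions printed above. TGANTCA was present at 30 of the 137 other regions (21.9%, against 24.1%), of which 7 were at Acvr1 and 6 at Ltbp1, and at 1 start site, Tgfbr2 (2.7%, against 5.68%). GTCTAGAC, a Smad3 and Smad4 palindrome, was present at 1 start site, Smad6 (2.7%, against 0.166%), and at 0 other regions (against 0.281%). AGCCAGACA, the CAGA box, was present at 0 start sites (against 0.303%) and 1 other region, at Acvr1 (0.73%, against 0.648%). None of the motifs contains another, a match is not evidence of binding, and these shares were not tested.

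CpG content at the most upstream start of a gene moved with the number of libraries called. A called peak may lie at another start, as at Ltbp1. Over 1000 bases on each side of the most upstream start, the median ratio of observed to expected CpG was 0.802 at the 22 genes called in all libraries. It was 0.656 at the 15 called in some and 0.344 at the 5 called in none. All protein-coding genes showed the same order, with 0.657, 0.528 and 0.209. Median GC content was 61.8%, 57.5% and 53.1% at the pathway genes, against 54.1%, 53.8% and 45.8%. The 5 genes with no start-site peak, Bmp4, Bmp5, Gdf5, Ltbp3 and Acvrl1, lay between 0.255 (Gdf5) and 0.423 (Acvrl1), under every gene of the partly called class, whose lowest was 0.528 (Tgfb3). Inhba was the exception among the genes called throughout, at 0.4.

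**Figure D5:**
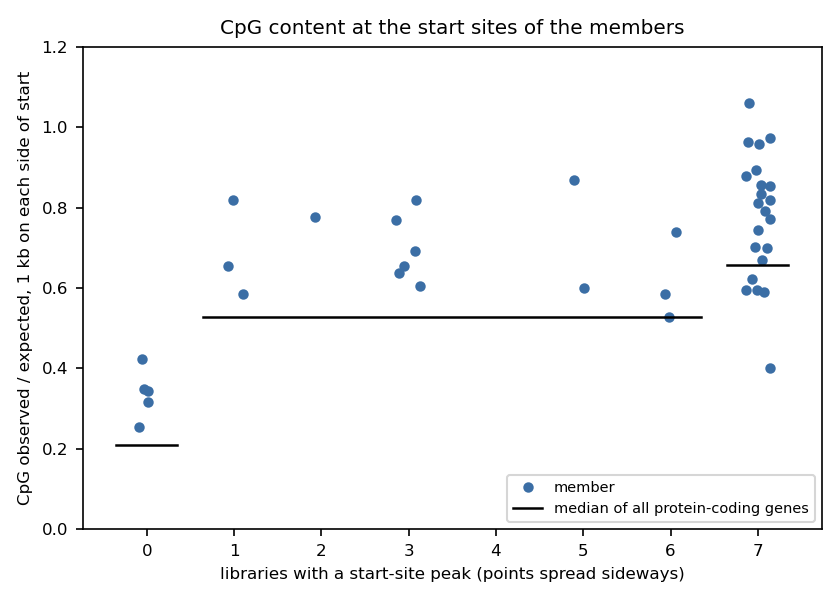
Ratio of observed to expected CpG (vertical axis) against the number of libraries with a start-site peak (horizontal axis), with a point for each of the 42 genes. CpG was taken in 1000 bases on each side of the most upstream start of the gene. Black lines are medians of all protein-coding genes with a peak in 0, 1 to 6 or 7 libraries. The 5 genes at 0 libraries lie between 0.255 and 0.423, and Inhba at 7 libraries lies at 0.4.

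A further 62 genes of the pathway, fixed as a list and all found in the annotation, had fewer start-site peaks. Of these, 12 were called in all libraries (19.4%, against 36.8% of all genes), 24 in none (38.7% against 43.4%) and 26 in some (41.9% against 19.8%). Per library 25, 30, 17, 17, 33, 32 and 22 were called in ATAC1 to ATAC7. These shares were near those of all genes in ATAC2 (48.4%), ATAC5 (53.2%) and ATAC6 (51.6%) and below them in the others, with 27.4% against 43.5% in ATAC3, unlike at the 42 genes. The intracellular regulators had most, with 7 of 10 in all libraries. Ski, a Smad co-repressor, had 746 (ATAC2) to 1430 (ATAC5) reads. The other ligands had fewest, with 1 of 20 in all libraries and 13 in none, among them Nodal, Mstn, Amh and Gdf2. Bambi, a pseudoreceptor, was called in all libraries with 359 (ATAC4) to 1064 (ATAC5) reads. The other antagonists had 1 of 11 in all libraries and 5 in none, among them Sost and Cer1, and the matrix and activation genes had 0 of 8 in all libraries. Of the other targets, Ctgf was called in all libraries, with 80 (ATAC7) to 342 (ATAC5) reads. As at the 42 genes, regulators inside the cell were called in more libraries than secreted ligands and antagonists, and this order was not tested.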

How the data were processed

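Peak tables of 7 ATAC-seq libraries were analysed. The authors mapped the reads with bowtie (mm9), and CisGenome then compared every library with Input to call its peaks. Duplicate removal and the Tn5 shift are not given in the sources used here, and the extraction protocol in the labels describes RNA. The deposited tables have no header and hold, for an outer region around each peak, a count of library reads and a count of Input reads. The width of that region differs between libraries. The authors' fold is a ratio, a scale factor of 1.009 (ATAC3) to 1.713 (ATAC5) times library reads over Input reads plus 0.01. The ranking statistic is a signal column made by the authors' caller, and the tables are sorted by it. The separate peak lists equal the tables in all 164103 peaks. Total sequencing depth is unknown, and precision is that of the reads in a peak.

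Peaks were assigned to GENCODE vM1 genes of the NCBIM37 (mm9) genome: start-site peaks by a centre within 1000 bases of a transcript start, other peaks by overlap with the gene or 10 kb around it. The best-ranked start-site peak represents a gene. Intervals are exact 95% Clopper-Pearson intervals of library against Input reads, and PCR copies make them cover counting error only. RefSeq promoter sequences matched the genome for 29 of 42 members. The members and lists were chosen with earlier results of these data known. Values in every library are given for the strongest and the most variable member of each role, for members called in 1 to 6 libraries and for the 5 with most other regions. The sequences were picked by number of libraries and mean log2 fold, and windows in an exon (Id3, and a second Tgfb1 region) or on chromosome 18 were left out. The alternatives were other windows and distances, transcripts, coordinates, an equal number of peaks and a minimum fold. No test was possible with 1 library per title. Assignment was tested on simulated peaks. Scripts used scipy 1.17.1, pandas 2.3.3, numpy 2.4.6 and matplotlib 3.10.9 under Python 3.11.15.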

Additional observations from a re-analysis of the deposited data

How the results depend on the processing

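The counts of start-site peaks (per library, in all and in none) stayed within 1.5 times of their values with windows of 500 or 2000 bases, with any base of the peak in the window, with protein-coding transcripts only, with the outer coordinates and with RefSeq starts added, an alternative chosen after seeing the data. With each list cut to its best 15188 peaks, 9 genes had no start-site peak and the other peaks numbered 13 in ATAC1, 36 in ATAC2, 27 in ATAC5 and 24 in ATAC6. With a fold of at least 5, start-site peaks were at 14 genes in ATAC3, 9 in ATAC4 and 15 in ATAC7, at 6 in all libraries and at none in 9, and other peaks numbered 14 in ATAC3 and 11 in ATAC4. Within the gene alone, other peaks in ATAC1 to ATAC7 numbered 19, 57, 7, 5, 57, 45 and 15, and within 50 kb of it 124, 192, 79, 73, 195, 159 and 77. Leaving out peaks near a start of another gene kept all counts of other peaks within 1.5 times. By gene, the number of libraries with a start-site peak changed for 28 genes with the minimum fold (by over 1.5 times for 15), for 13 with equal lists (9), for 6 with 500 bases (3), for 3 with 2000 bases (3), for 2 with any base (1), for 1 with the outer coordinates (0) and for 1, Bmpr2, with RefSeq starts (1).

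The partly called start sites rest on 43 to 368 reads, and a site with no peak has no reads in the tables. Leaving out a replicate does not apply to single libraries. No paired analysis was possible because there were no replicate numbers and no test.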
